A study of Mus musculus with 11 samples.

Results

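The motile cilium genes Dynlrb2, Efcab1, Rsph1, Mlf1, 1110017D15Rik, Foxj1, Rfx3 and Rfx4 were followed in EGFP-labeled intermediate progenitors (IPs) of Tbr2 mutant cortex at embryonic day 16 (E16) and embryonic day 13 (E13). These 8 genes, of 19057 paired with a probe on the array, were chosen by gene symbol and hold 19 of its 45281 probes. Dynlrb2 and Efcab1 were selected on their detection at E13 alone, and the other genes were named as cilia genes with results of these arrays known, so the stage values of all 8 are given as a description with no test. RNA of sorted cells was hybridized to Illumina bead arrays, 6 at E16 and 5 at E13, each a biological replicate. All samples carried the Tbr2 conditional deletion (Tbr2 fl/fl), and the methods name the Tbr2-EGFP reporter as the source of the label. The array methods call the animals Tbr2 cKO mice, the study's name for Tbr2 fl/fl mice carrying Emx1-Cre, which acts in progenitors of the dorsal forebrain. The labels of the arrays give no driver. The 3 litters behind the arrays are not assigned to samples. Arrays from 1 litter would not be independent. Control arrays were not analysed here, so every value compares E16 with E13 within the Tbr2 mutant.

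A motile cilium is a beating projection built on a ring of microtubule doublets, with axonemal dyneins as motors and radial spokes and a central pair that control the beat. The transcription factor FOXJ1 and the RFX factors switch on its genes, and MCIDAS acts above them in multiciliated cells. In the developing forebrain such cilia are known from the choroid plexus and later the ependyma, whereas cortical progenitors carry a single primary cilium, which shares the intraflagellar transport machinery but not the motors.

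Each value below is the background-subtracted signal of a probe in arbitrary units, scaled so that all arrays have a common median over the 16411 probes detected on all 11 arrays. A probe was called detected on an array at a deposited detection p under 0.05. The dimmest detected probe of an array had a scaled signal of 15.4 to 19.2, and values below that level, including those under 0, cannot be told from background. Levels of different probes cannot be set against each other. Unless another probe is named, each gene is given by its brightest probe, the one with the highest mean over all arrays.

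Between 19757 and 20854 probes were detected per array. Eomes, which encodes TBR2, was detected on all arrays, with a mean scaled signal of 1917 ± 551 at E16 and 2604 ± 108 at E13 (SD, n = 6 and 5), and whether its probe lies in the deleted part of the gene was not checked. Summed over 12 IP markers, the scaled signal was 25763 to 41822 on E16 arrays and 40493 to 51763 on E13 arrays. E13 array 64 stood apart, since its summed signal of 6 erythroid markers was 26640, against at most 512 on the other E13 arrays. It was also the highest E13 array for choroid plexus, interneuron, endothelial, microglial and meningeal markers. For radial glial markers it was the highest too, at 8403 against at most 7449 on the other E13 arrays, and for neuronal markers the lowest, at 52700. On E16 arrays the erythroid sum was 690 to 7788, above all E13 arrays but array 64. E16 array 97 held the highest E16 sum for erythroid (7788), cortical hem (867), radial glial (5054), Cajal-Retzius (9404), interneuron (1005) and microglial (80.5) markers. In sorted populations measured in bulk, fewer cells of a type and less RNA per cell cannot be told apart.

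Of the 8 brightest probes, 4 had every E13 array above every E16 array (Dynlrb2, Efcab1, Rsph1 and Mlf1) and 4 overlapped between the stages (1110017D15Rik, Foxj1, Rfx3 and Rfx4). Over all 9738 genes detected on all arrays of at least 1 stage, 9.04% had E13 entirely above E16. All 8 had a lower mean at E16. For the genes detected on all arrays the difference of log2 means (E16 minus E13) lay between -1.93 for Mlf1 and -0.13 for Rfx4, and for those under detection at E16 a bound on the fold is given with each gene. Of the 19 probes, 7 were detected on all arrays, 3 on all E13 arrays and no E16 array, 4 on no array and 5 lay in between.

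**Figure D1:**
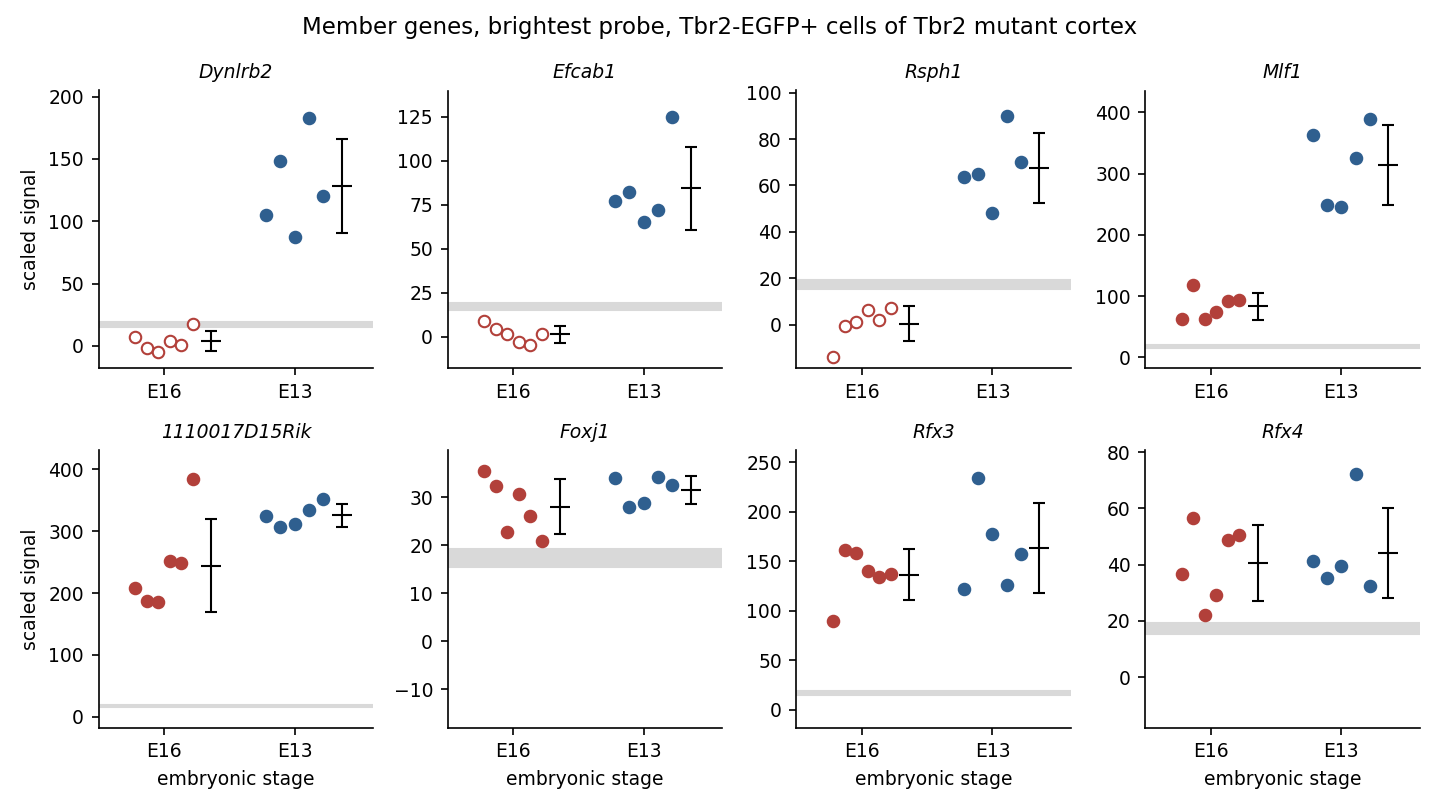
Scaled signal (arbitrary units, linear axis) of the brightest probe of each of the 8 genes, with the 6 E16 arrays in red on the left and the 5 E13 arrays in blue on the right of each panel. Filled points were detected (p under 0.05) and open points were not, bars give the mean and SD, and the gray band spans the dimmest detected signals of the arrays, 15.4 to 19.2. The stages are apart in the panels of Dynlrb2, Efcab1, Rsph1 and Mlf1 and overlap in the other panels.

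Dynlrb2, Efcab1 and Rsph1 encode parts of the axoneme or its motors, and each was detected on 5 of 5 E13 arrays and 0 of 6 E16 arrays. Among all 19057 genes, 38 (0.199%) showed that pattern, which is the one Dynlrb2 and Efcab1 were selected on. The detection p of Dynlrb2 was 0 on every E13 array and at least 0.0620 on the E16 arrays, and that of Efcab1 was 0 at E13 and at least 0.181 at E16.

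Dynlrb2 is a roadblock-type light chain of the dynein complex that is abundant in ciliated tissues. Its scaled signal on E16 arrays was -4.81 at the lowest, 1.97 at the median and 17.3 at the highest, against 105, 148, 87.2, 183 and 120 on E13 arrays 37, 40, 61, 64 and 65. The stages did not overlap, and E16 array 97, at 17.3, came nearest to detection. On the other E16 arrays Dynlrb2 was at most 7.34. Means were 3.61 ± 7.94 at E16 and 129 ± 37.7 at E13 (SD, n = 6 and 5), at least 6.98-fold lower at E16 when the E16 level is set to the dimmest detected signal of each array. Its paralog Dynlrb1, the widely expressed light chain of cytoplasmic dynein, had 4505, 4822 and 5578 at E16 (lowest, median and highest) and a mean of 5721 ± 792 at E13. The log2 fold change of Dynlrb1 was -0.09 (standard error, SE, 0.104, limma adjusted p = 0.577), and its stages overlapped.

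Efcab1, an EF-hand protein known as calaxin that binds calcium at the outer dynein arms, had -4.65 at the lowest, 1.47 at the median and 8.67 at the highest on E16 arrays, against 77.3, 82.1, 65.2, 72.3 and 125 on the E13 arrays in the same order. The stages were apart by more than the whole range of the E16 values. Means were 1.37 ± 4.79 at E16 and 84.4 ± 23.7 at E13 (SD, n = 6 and 5), at least 4.61-fold lower at E16. Of the other 3 probes of Efcab1, ILMN_1228770 was detected on 0 of 6 E16 arrays and 2 of 5 E13 arrays, with means of 10.1 and 16.1, and the remaining probes were detected on none. The difference therefore rests on 1 of the 4 probes.

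Rsph1, a protein of the radial spoke head, had scaled signals of -13.8, 1.59 and 7.16 at E16 (lowest, median and highest), against 63.7, 65.1, 48.0, 90.1 and 70.0 at E13. No E16 array came near the dimmest E13 array. Means were 0.405 ± 7.61 at E16 and 67.4 ± 15.1 at E13 (SD, n = 6 and 5), at least 3.70-fold lower at E16.

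Mlf1, a protein first known from a leukemia fusion and also found in ciliated epithelia, was detected on all arrays. Its scaled signal on E16 arrays was 61.7 at the lowest, 82.6 at the median and 118 at the highest, against 363, 248, 246, 326 and 389 at E13. Every E13 array lay above every E16 array. The log2 fold change of ILMN_3112219 was -1.92 (SE 0.201). Its second probe, ILMN_2658425, had means of 9.79 ± 5.58 at E16 and 64.4 ± 13.8 at E13, was detected on 1 of 6 E16 arrays and 5 of 5 E13 arrays, and did not overlap either.

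1110017D15Rik encodes a small protein annotated as Smrp1 and Cbe1, known from the manchette of spermatids and from ciliated airway epithelium. Its brightest probe had 185, 228 and 385 at E16 (lowest, median and highest), against 325, 306, 311, 334 and 352 at E13. Here the stages overlapped through 1 array, E16 array 97, and the log2 fold change was -0.46 (SE 0.176). Without that array, which led the E16 arrays in markers of several other cell types, the E16 values were at most 252 and the difference of log2 means was -0.60, and the part of those markers was not tested. ILMN_3118081 had 77.9, 117 and 127 at E16, against 205, 170, 194, 239 and 241 at E13, with a log2 fold change of -0.92 (SE 0.155). The dimmest probe, ILMN_3043178, had means of 27.4 ± 8.37 at E16 and 67.4 ± 17.2 at E13. These last probes did not overlap between the stages, so the 3 probes of the gene had the same direction but differed in size and in overlap.

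The regulators Foxj1, Rfx3 and Rfx4 were detected on all arrays and did not separate by stage. Foxj1, the forkhead factor that directs motile cilia formation, had 20.8, 28.3 and 35.5 at E16 (lowest, median and highest), against 34.0, 27.9, 28.7, 34.2 and 32.5 at E13. Its E13 values lay within the range of its E16 values, and the log2 fold change was -0.20 (SE 0.176). Its detection p reached 0.0395 on an E16 array and was at most 0.00748 on the E13 arrays. At both stages its signal was low, with means of 28.0 at E16 and 31.5 at E13 beside dimmest detected signals of 15.4 to 19.2.

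Rfx3, which acts in both primary and motile cilia, had 89.7, 138 and 161 at E16 and 122, 234, 177, 126 and 157 at E13. The stages overlapped, with a log2 fold change of -0.24 (SE 0.206), and the second probe, ILMN_2708609, had means of 30.3 ± 13.9 at E16 and 29.5 ± 6.79 at E13. Rfx4, the RFX factor best known from the dorsal midline of the developing brain, had 22.1, 42.7 and 56.5 at E16 and 41.4, 35.4, 39.5, 72.1 and 32.5 at E13. Its E16 range held 4 of the 5 E13 values, and its log2 fold change was -0.14 (SE 0.271). Of the other probes of Rfx4, 2 were detected on no array. ILMN_2722156 was detected on 2 of 6 E16 arrays and 5 of 5 E13 arrays with means of 16.3 and 21.0, and ILMN_2452978 on 2 of 6 and 1 of 5 with means of 15.1 and 13.1.

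RFX factors bind the X-box, a pair of inverted half-sites. The RefSeq promoter windows of GRCm38.p6 (250 bases before to 50 after each start) hold an X-box match or a half-site alone for the genes below. Of these, Dynlrb2, 1110017D15Rik and Mlf1 are members and Ccno, Mcidas and Drc1 are other motile cilia genes that were lower at E16. They are shown because Rfx3 and Rfx4 encode factors of this family and X-boxes are known from the promoters of many cilia genes. The set is not complete. Of 13 other motile cilia genes lower at E16, with or without the detection filter, 11 had an entry. Among those 11, 3 held the X-box consensus and 3 held GTTGCCA on either strand, and the rest are not shown. Ccdc151, another motile cilia gene lower at E16, held an upstream X-box consensus match ending 159 bases before its start, which is not printed. Entries existed for 5 of the 8 members (Dynlrb2, 1110017D15Rik, Mlf1, Rfx3 and Rfx4). The half-site GTTGCC was picked after the sequences were read, and it lies within GTTGCCA and in many X-box matches. Capitals mark the match to the X-box consensus in Dynlrb2, 1110017D15Rik and Ccno, and GTTGCCA or its reverse complement in the others. All lie upstream of the start and are written 5′ to 3′ on the strand of the gene.
Dynlrb2 (chr8:116504956-116504984, plus strand, match ending 39 bases before the start): cctgcctgGTTGCCTAGCAACgggggaag
1110017D15Rik (chr4:41507765-41507790, minus strand, match ending 6 bases before the start): gtaaatgtGTTGCCCGGCAACaactc
Mlf1 (chr3:67373984-67374006, plus strand, match ending 99 bases before the start): ttacagagGTTGCCAtagcagcc
Ccno (chr13:112987575-112987604, plus strand, match ending 206 bases before the start): gggctgcgGTTGCCACGGTGACgacagacg
Mcidas (chr13:112993665-112993687, plus strand, match ending 189 bases before the start): gaagccagGTTGCCAggttggtt
Drc1 (chr5:30281373-30281392, plus strand, match ending 6 bases before the start): ctttccctTGGCAACggctt

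On either strand, the X-box consensus was found in 2 of the 5 members, in 17 of 117 other motile cilia genes with an entry (14.5%), in 9 of 65 primary cilium genes (13.8%) and in 474 of all 27025 genes (1.75%). GTTGCC was found in 4 of the 5 members, Rfx3 among them at 32 bases after its start, in 48 of 117 other motile cilia genes (41%), in 25 of 65 primary cilium genes (38.5%) and in 3821 of 27025 genes (14.1%). The longer half-site GTTGCCA was found in 1 of the 5 members, in 28 of 117 other motile cilia genes (23.9%), in 14 of 65 primary cilium genes (21.5%) and in 1358 of 27025 genes (5.02%), so the count of 4 members rests on the shorter form picked after the sequences were read. For these motifs other motile and primary cilium genes had similar shares. GTTGCC was found in members whose brightest probes were apart between stages (Dynlrb2 and Mlf1) and in members whose brightest probes overlapped (1110017D15Rik and Rfx3). The dimmer probes of 1110017D15Rik did not overlap. The forkhead motif GTAAACA lay in 1 of the 5 members, Mlf1, on the opposite strand and starting 116 bases before the start, and in 4.05% of all genes. A match is a run of letters and no measure of binding.

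**Figure D2:**
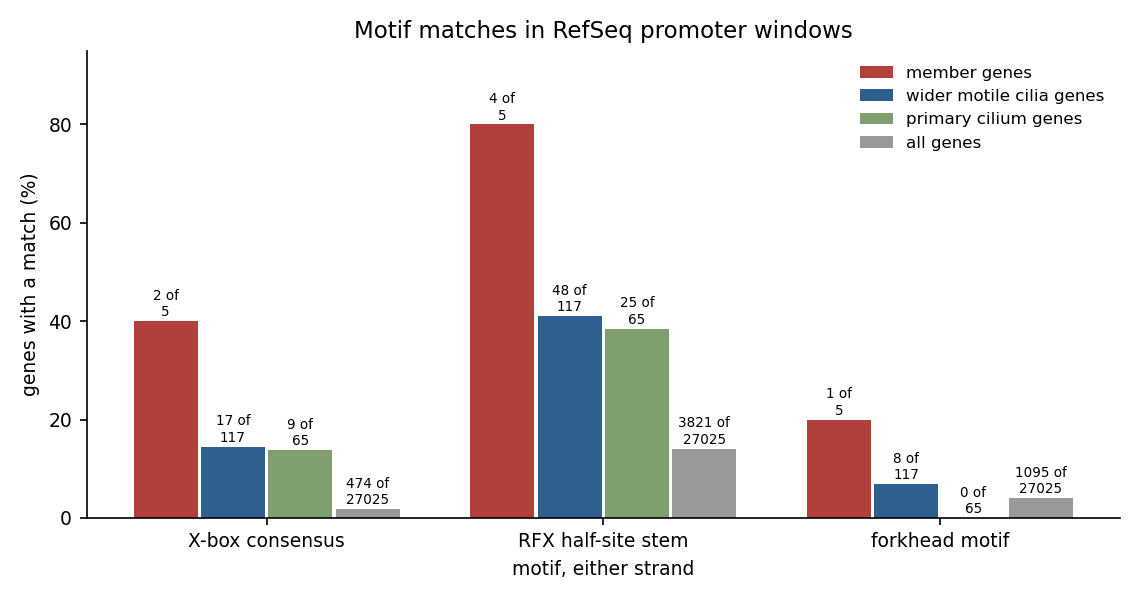
Percent of genes with a match to each motif (y axis, from 0) in RefSeq promoter windows, for member genes, other motile cilia genes, primary cilium genes and all genes, with the number of genes with a match of those with an entry above each bar. The X-box consensus was found in 14.5% of other motile cilia genes, 13.8% of primary cilium genes and 1.75% of all genes, and the bars of the members rest on 5 genes.

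A wider set of 157 motile cilia genes in 11 lists by role, less the 8 members, was then compared between stages in the limma fit over all probes detected on all arrays, where a call took more than a 1.5-fold change at an adjusted p below 0.05. Of these, 133 were on the array, 52 were detected on no array and 40 were tested. None of the 40 was higher at E16 and 7 were lower, where 5.27% of all 8967 genes tested were higher and 6.98% lower. The median log2 fold change of the 40 was -0.30, against 0.00 over all genes, and 28 of the 40 were below 0. Without E13 array 64, 6 genes were lower and 0 higher.

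The 7 genes came from 6 roles. Rfx2, an RFX factor of ciliogenesis, had 44.8, 76.0 and 111 at E16 (lowest, median and highest), against 193, 157, 223, 236 and 287 at E13. It fell with a log2 fold change of -1.50 (SE 0.231, limma adjusted p = 5.0e-04), beside Rfx1 at -0.03 (limma adjusted p = 0.901) and Rfx7 at 0.27 (limma adjusted p = 0.557). Plk4, the kinase that starts centriole formation in dividing as well as in ciliated cells, had 87.0, 108 and 122 at E16 and 247, 216, 195, 253 and 232 at E13, with a log2 fold change of -1.10 (limma adjusted p = 7.0e-05). For neither gene did the stages overlap.

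Among structural genes, Tppp3, a tubulin-binding protein of the ciliary axoneme, fell by 1.30 on the log2 scale (limma adjusted p = 9.1e-04), with means of 29.4 ± 7.78 at E16 and 70.9 ± 16.0 at E13. The central pair gene Spag6l fell by 1.09 (limma adjusted p = 0.0137) and Ribc1, found inside the doublet microtubules, by 0.87 (limma adjusted p = 0.00990). Drc3, of the nexin-dynein regulatory complex, fell by 0.73 (limma adjusted p = 0.00397). Ccdc151, which docks outer dynein arms, fell by 0.80 (limma adjusted p = 0.0280) but was the one gene of the 7 whose stages overlapped, with 45.7 on the highest E16 array and 35.7 on the lowest E13 array. The limma call on Ccdc151 was lost without any 1 of E13 arrays 37, 64 and 65 and E16 arrays 15, 80, 91 and 97, with adjusted p between 0.0527 and 0.0699.

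In the remaining roles no tested gene was called. The axonemal dynein heavy chains had 2 genes tested, Dnah11 at -0.28 and Dnah7a at 0.06 on the log2 scale, and 6 of their 10 genes on the array were detected on none. The assembly factors Dnaaf1 and Dnaaf2 were at 0.10 and -0.36, and the radial spoke genes Rsph9 and Rsph3a at 0.05 and -0.35 (limma adjusted p = 0.852 and 0.311). Of the 11 radial spoke genes on the array, 6 were detected on none. The light and intermediate chains were led by Dynlrb1, given above, and Wdr78 at -0.39 (limma adjusted p = 0.103). The last list had 1 gene tested, Tmem107 of the transition zone, at -0.57 and so under the fold threshold (limma adjusted p = 0.0368). Genes that are not particular to motile cilia, such as Dynlrb1, Tmem107 and Plk4, count among the 40 tested, and Plk4 also among the 7 called lower. How many of the 40 are particular to motile cilia was not counted.

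**Figure D3:**
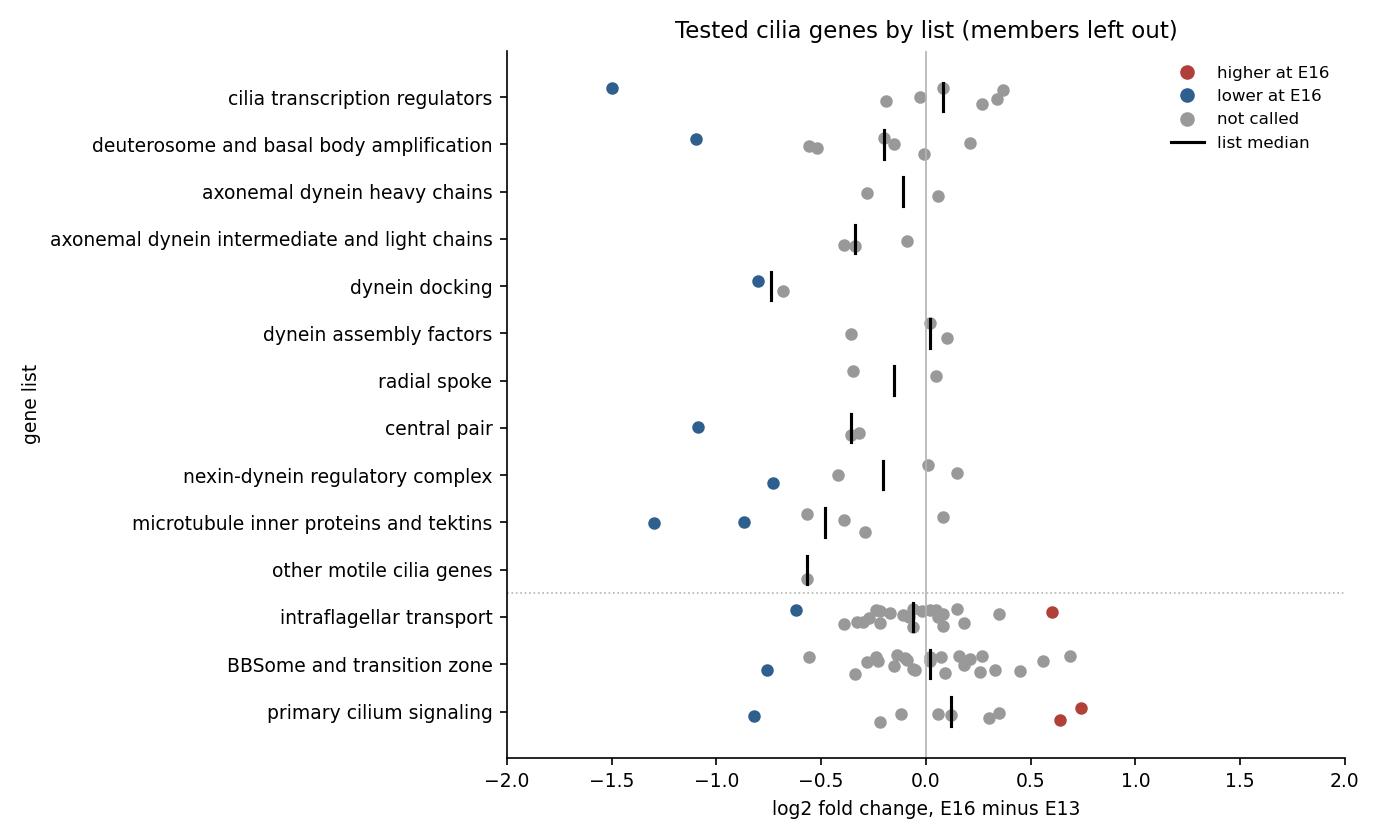
Log2 fold change (x axis, E16 minus E13) of each tested gene in 11 motile cilia lists (above the dotted line) and 3 primary cilium lists (below it), with black bars at the list medians. Red genes were called higher and blue genes lower at E16, and the 7 blue motile genes lie between -1.50 and -0.73 with no red one, while the primary cilium lists hold 3 of each.

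The detection rule leaves out genes that were dim at 1 stage, as it did for Dynlrb2. In a fit with no detection filter, signals under 16 were set to 16, so log2 fold changes of genes near or under detection depend on that floor. The floor also removes the spread among arrays under it, so the SE and adjusted p of such genes do not measure the full spread of replicates. There 10 of the 133 motile cilia genes were lower at E16 and 1 was higher, where 3.21% of all 19057 genes were lower and 2.02% higher. Of these, Drc1 was the only gene of the wider set detected on all E13 arrays and no E16 array, and the others named in this and the next paragraphs were chosen after their values were seen. Spag6l, Ribc1 and Ccdc151 were not called in that fit (limma adjusted p = 0.104, 0.0593 and 0.117).

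Ccno and Mcidas, neighboring genes that drive centriole amplification in multiciliated cells, had the largest differences of the wider set in that fit. Ccno had 14.9, 32.6 and 47.4 at E16 (lowest, median and highest), against 1023, 771, 548, 596 and 839 at E13, and was detected on 5 of 6 E16 arrays. Its log2 fold change was -4.62 (SE 0.277, limma with no filter, adjusted p = 8.9e-05). Mcidas had 0.512, 3.44 and 19.8 at E16, against 190, 148, 85.8, 131 and 146 at E13, with a log2 fold change of -3.04 on the floored scale (SE 0.197, limma with no filter, adjusted p = 9.6e-05). Mcidas was detected on 1 of 6 E16 arrays and 5 of 5 E13 arrays, and for both genes the stages were far apart.

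Fam183b, a gene of ciliated cells, had 10.4, 18.4 and 26.1 at E16, against 99.9, 90.0, 90.3, 88.1 and 86.5 at E13 (log2 fold change -2.24, limma with no filter, adjusted p = 1.9e-04). Nme5, placed with the radial spoke, had 10.3, 22.5 and 33.5 at E16, against 75.6, 98.9, 66.7, 103 and 78.3 at E13 (log2 fold change -1.90, limma with no filter, adjusted p = 0.00167). Neither overlapped between the stages. 1700007K13Rik, a microtubule inner protein, had means of 7.22 ± 8.28 at E16 and 46.7 ± 8.64 at E13 (limma with no filter, adjusted p = 5.7e-04), and Drc1, of the nexin-dynein regulatory complex, 8.83 ± 4.71 and 35.0 ± 7.36 (limma with no filter, adjusted p = 3.9e-04). Drc1 was at least 1.93-fold lower at E16. The gene that ran the other way was Lrrc6, a dynein assembly factor, with means of 37.3 ± 10.7 at E16 and 20.5 ± 3.82 at E13 (log2 fold change 0.81, limma with no filter, adjusted p = 0.0416).

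**Figure D4:**
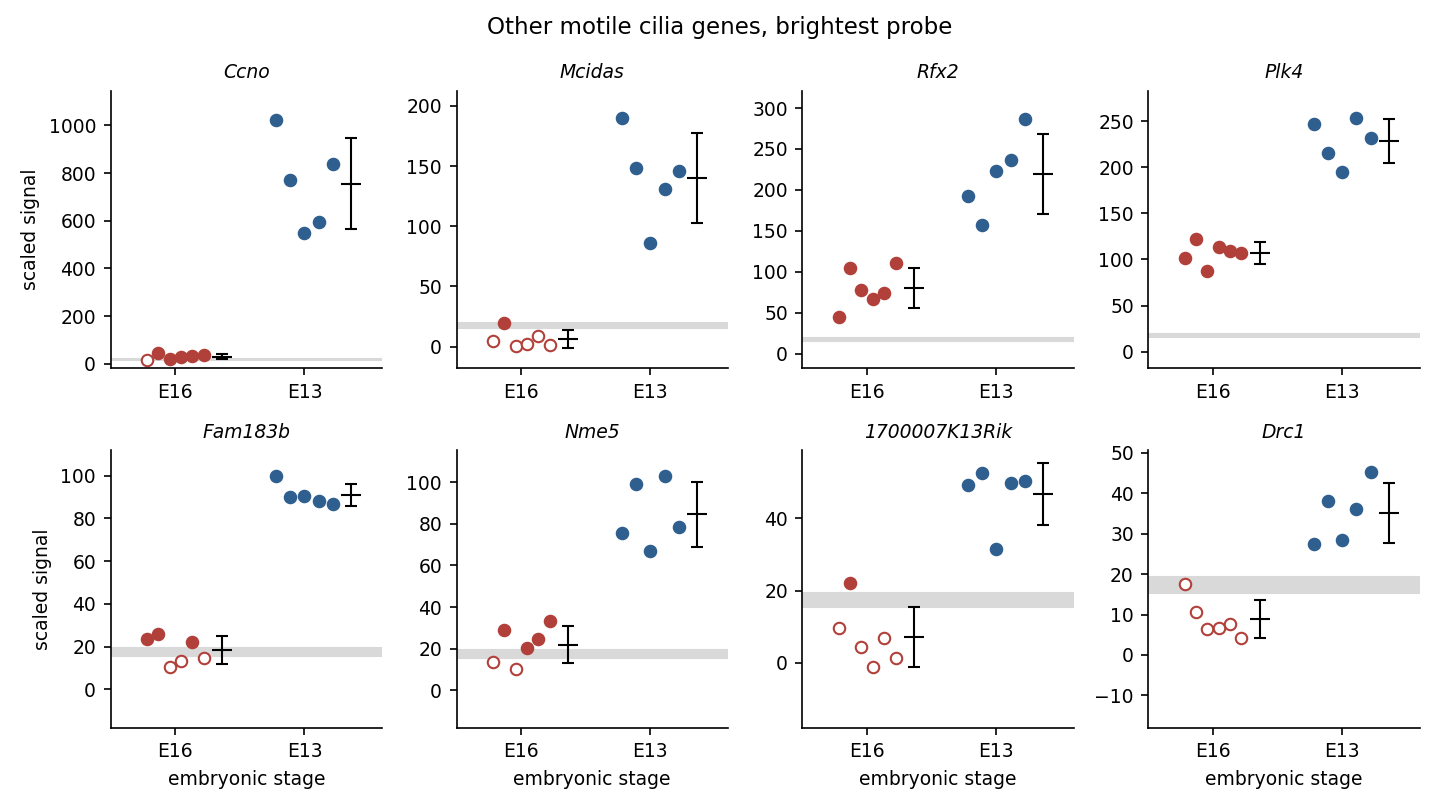
Scaled signal (arbitrary units, linear axis) of the brightest probe of 8 other motile cilia genes that were lower at E16, with E16 arrays in red on the left and E13 arrays in blue on the right, drawn as for the members. In all 8 panels the stages are apart, and the distance is greatest for Ccno, with 14.9 to 47.4 at E16 and 548 to 1023 at E13.

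Genes of the primary cilium, which shares parts with the motile one, were compared in the same fit with the detection filter. Of 72 such genes on the array 57 were tested, with 3 higher at E16, 3 lower, and a median log2 fold change of -0.02. The genes that rose were Adcy3, the ciliary adenylyl cyclase of neurons (0.74, limma adjusted p = 0.0181), Pkd1, a polycystin (0.64, limma adjusted p = 0.00776), and Ttc30b, of the intraflagellar transport complex (0.60, limma adjusted p = 0.0112). Those that fell were Gli3, the transcription factor of Hedgehog signaling (-0.82, limma adjusted p = 0.00208), B9d1, of the transition zone (-0.76, limma adjusted p = 0.00217), and Ift22, of intraflagellar transport (-0.62, limma adjusted p = 0.00720). Without E13 array 65, 1 primary cilium gene was higher and 2 were lower, and Adcy3 had 0.64 (limma adjusted p = 0.0505). Single arrays also took the change under 1.5-fold for Ttc30b, to 0.54 to 0.58 without E13 array 64 or 65 or E16 array 80, 91, 95 or 97, and for Ift22, to -0.58 to -0.56 without E13 array 40 or 65 or E16 array 11 or 80. Whether the motile and primary lists differ from each other was not tested.

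Markers of the choroid plexus, whose epithelium bears motile cilia, and of the cortical hem, which borders it at the edge of the cortex, were higher at E13 in sum. Of 15 choroid plexus markers 11 were on the array and 1 was detected on all arrays, and their summed signal was 95.8 to 226 on E16 arrays, 5657 on E13 array 64 and 304 to 506 on the other E13 arrays. The 1 marker tested was called lower at E16 (log2 fold change -2.37). With no detection filter 2 of the 11 were lower at E16 and 0 higher. Ttr, which defines the choroid plexus epithelium, was detected on 0 of 6 E16 arrays, with -5.66, 3.83 and 9.87 (lowest, median and highest), and at E13 had 116, 11.8, 4.34, 4890 and 65.9 on arrays 37, 40, 61, 64 and 65. It was under detection on E13 arrays 40 and 61, on which Dynlrb2 had 148 and 87.2, and Ccno 771 and 548. On the E13 arrays other than 64, Dynlrb2 had 87.2 to 148, Efcab1 65.2 to 125 and Rsph1 48.0 to 70.0, all above every E16 array. For Mlf1 the difference of log2 means was -1.91 without E13 array 64, against -1.93 with it.

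Of 14 cortical hem and roof plate markers 13 were on the array and 2 were detected on all arrays, and their summed signal was 473 to 867 at E16 and 988 to 1277 at E13. Wnt8b and Rspo2, secreted signals of the hem, were both detected on all E13 arrays and no E16 array, as Dynlrb2, Efcab1 and Rsph1 were. They were the only 2 of the 13 hem markers with that pattern, and 3 were detected on no array. Of the 2 markers tested, 0 were called, and with no detection filter 3 of the 13 were lower at E16 and 0 higher. Wnt8b had -7.75, 7.25 and 13.3 at E16 (lowest, median and highest) and 71.4, 40.1, 20.9, 86.8 and 57.5 at E13, and Rspo2 -3.91, 6.60 and 15.5 at E16 and 61.6, 42.0, 24.2, 44.9 and 70.3 at E13. E13 array 61 was the lowest E13 array for both hem genes and for Dynlrb2, Efcab1 and Rsph1. Among genes of the wider cilia lists it was also the lowest for Gli3 (743) and Plk4 (195), but not for Rfx2 (223) or B9d1 (1010). Whether that low array is particular to hem and cilia genes was not tested. Summed Cajal-Retzius markers were 2876 to 9404 at E16 and 11164 to 27534 at E13, and radial glial markers 3396 to 5054 at E16 and 5657 to 8403 at E13. The part of other cell types in the values of the cilia genes was not tested.

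**Figure D5:**
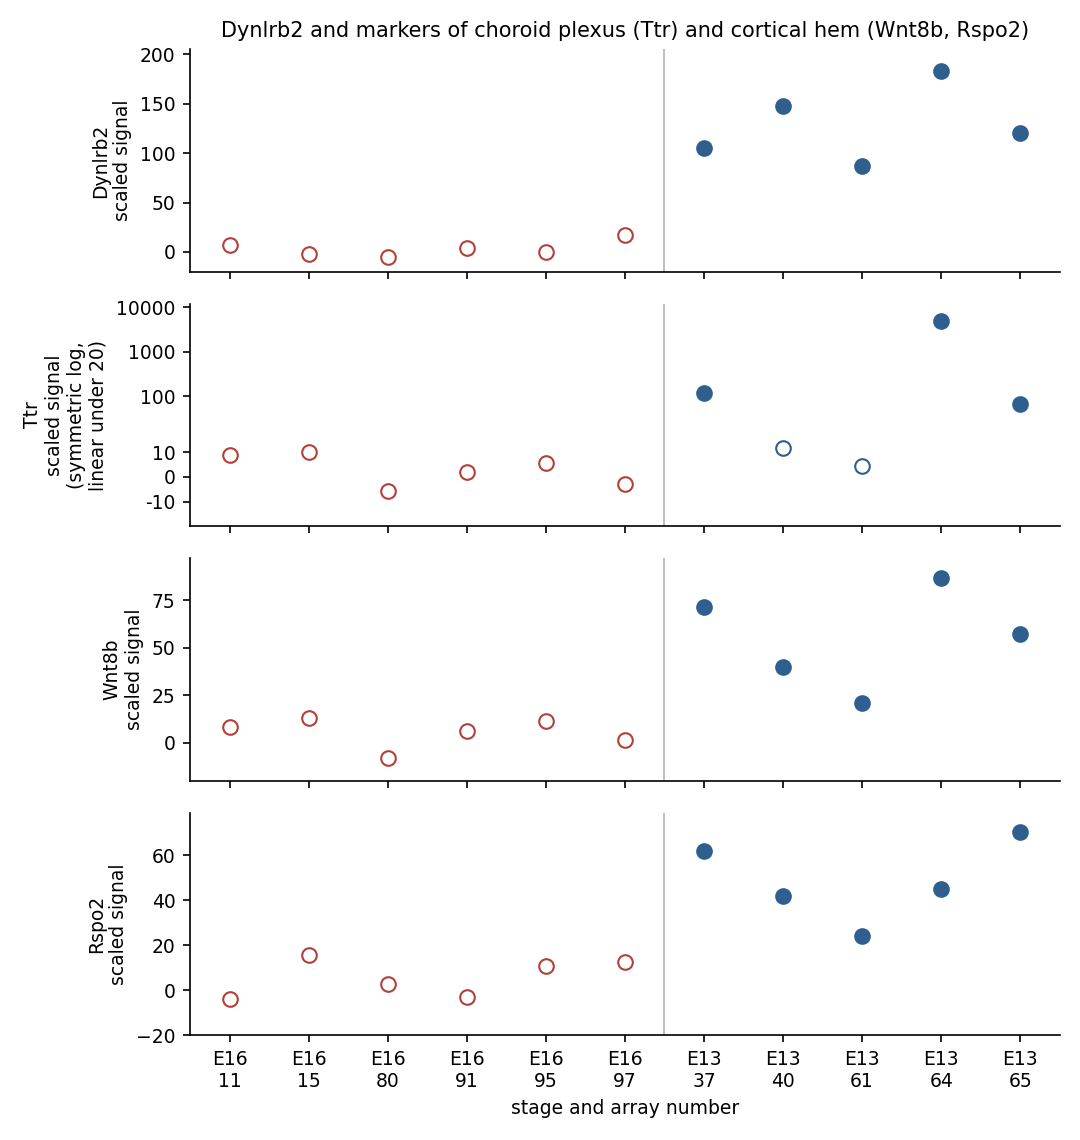
Scaled signal of Dynlrb2, Ttr, Wnt8b and Rspo2 on each array, with the 6 E16 arrays in red left of the line and the 5 E13 arrays in blue right of it (filled points detected, open points not). The axis of Ttr is a symmetric log scale, linear under 20, and the others are linear. Ttr is at 4890 on E13 array 64 and under detection on E13 arrays 40 and 61, where Dynlrb2 is at 148 and 87.2, and Wnt8b and Rspo2 are detected on the E13 arrays alone.

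The profile of Dynlrb2 over the 11 arrays (log2 of the scaled signal floored at 16) was most like that of Rsph1, with a Pearson r of 0.996 among 15001 probes compared. Only probes paired with a gene and detected on all E13 arrays were compared, with no such demand at E16. The ranks thus hold within a pool chosen by the stage at which Dynlrb2 was detected. Next were E2f6, a transcriptional repressor of the E2F family (0.989), Cdca5, the cohesin protector sororin (0.985), Nrsn2 (0.985) and Mlf1 (0.984). Probes were ranked singly, and E2f6, Nrsn2 and Mlf1 stood there through probes dimmer than their brightest. Efcab1 followed at rank 20 with 0.972, Mlf1's brighter probe at rank 118 with 0.942, and 1110017D15Rik, Foxj1, Rfx3 and Rfx4 had 0.656, 0.390, 0.351 and 0.210. Dynlrb2 was selected on its stage difference, which enters these values, and all genes share the same arrays.

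On deviations from the stage means, Nrsn2 (0.921), Rsph1 (0.891), Lig1, a DNA ligase (0.875), Rgs19 (0.870) and Pak1ip1 (0.861) were closest to Dynlrb2. Nrsn2 again stood there through its dimmer probe, ILMN_1231743, with means of 8.66 at E16 and 41.6 at E13. Among the other members Rfx4 was at 0.385, Efcab1 at 0.101 and the brighter probe of Mlf1 at 0.091. At E16 Dynlrb2 lay under the floor on every array but 1, which leaves mainly the 5 E13 arrays to set these values. Foxj1 was most like Tnks (0.943), Chd1 (0.934), Scube3 (0.928) and Azi2 (0.925) over all arrays, with a second probe of Chd1 at 0.919. Its profile had an r of 0.390 with that of Dynlrb2 and -0.340 with that of Rfx3. These are correlations over 11 arrays of 2 stages, given as a description.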

How the data were processed

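RNA of EGFP-labeled IPs of Tbr2 mutant cortex was measured on 11 Illumina bead arrays. The authors deposited each probe's signal intensity after background subtraction, with values under 0 kept, and a detection p-value per probe and array. They also deposited a table of log2 values of 15825 probes, quantile-normalized, which served as an alternative here. A further table with 22 columns of control arrays matched no sample and was not used.

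Column names and sample labels gave the groups. Gene names came from the platform annotation. In R 4.3.3, quantile normalization and log2 were applied to the 16411 probes that every array detected (p under 0.05). Stage was then fitted by limma 3.58.1 with a trended prior variance, and p-values were adjusted by Benjamini-Hochberg. The methods' removal of outlier probes could not be repeated, and their analysis of variance on 2 factors was replaced, since genotype was not analysed. Log2 fold changes are E16 minus E13. Member signals were scaled by the median, without quantile normalization, to keep values under detection in place. The fit was tested on simulated data. Tables and promoters were read with pandas 2.3.3 and numpy 2.4.6 in Python 3.11.15.

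The members and all gene lists were chosen with earlier results of these data known. Each list was described by at most 4 called genes a direction, or by its 2 brightest where none was called. A pair of list entries, whose array symbols were not paired with the listed genes in the sources, was removed after values were seen. Alternatives were normexp correction, median scaling, other detection filters, the authors' table, an unmoderated test, no fold threshold, means over probes, a replicate block and leaving out arrays. A slide block was not run, since the sources give no slide. The number of arrays limits the precision.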

Additional observations from a re-analysis of the deposited data

Results flagged for a closer look

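Single arrays stood off from the rest of their stage in 8 of 53 groups of values checked by Dixon's gap, the distance of the highest or lowest array from its neighbor over the whole range of the group, with critical values of 0.625 for 6 arrays and 0.71 for 5. Chance alone marks about 1 in 20 groups. Among the members, 1110017D15Rik had E16 array 97 high at 385, against 185 to 252 on the others (gap 0.665), and its probe ILMN_3118081 had E16 array 95 low at 77.9, against 114 to 127 (gap 0.726). Efcab1 was high on E13 array 65 at 125, against 65.2 to 82.1 (gap 0.718), and Rfx4 on E13 array 64 at 72.1, against 32.5 to 41.4 (gap 0.776).

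Among the other cilia genes, Adcy3 was high on E16 array 95 (80.7, gap 0.809) and Lrrc6 on E16 array 97 (58.8, gap 0.828). 1700007K13Rik was low on E13 array 61 (31.4, gap 0.844) and Fam183b high on E13 array 37 (99.9, gap 0.717). For Efcab1, Fam183b and 1700007K13Rik the E13 arrays stayed above all E16 arrays with these values included.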

How the results depend on the processing

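The number of probes called was 1848 of 16411, and 2943 with no fold threshold. Motile cilia genes lower at E16 numbered 7, with 14 of 52 when detection on all arrays of 1 stage sufficed (2470 of 18354 probes were called there, and genes let in by E13 alone had to be lower at E16, so this count supports nothing), 11 with no fold threshold, 4 at a detection p under 0.01 and 3 of 35 with the replicate block. Motile cilia genes higher at E16 numbered 0, and 1 with detection in 1 stage, with no filter or with no fold threshold. Primary cilium genes higher at E16 numbered 3, with 0 after normexp correction, 5 with no fold threshold and 1 with the replicate block. Other counts stayed within 1.5 times their value.

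Without each array in turn, the probes called ranged from 1515 to 1872, motile cilia genes lower at E16 from 6 to 10 and higher from 0 to 1 (1, Lrrc6, without E13 array 65), and primary cilium genes higher from 1 (without E13 array 65) to 4 and lower from 2 to 4. All 8 members had a lower mean at E16, and 7 did without E13 array 64 or without E16 array 80. Rfx4 ranged from -0.24 to 0.06 over the settings tried, while Dynlrb2, Efcab1, Rsph1 and Mlf1 kept their direction in every setting that held their probes.

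Same-numbered replicates of the authors' table did not deviate together (correlations from -0.25 to 0.171). Such correlations cannot exclude that a number stands for a shared litter or batch, and no label says what the numbers mean. The replicate block is therefore given as counts only. Calls on Ccdc151, Ttc30b and Ift22 were lost in 11 of 19, 8 of 20 and 5 of 20 alternatives. Signals near background limit Foxj1, the dimmer Rfx4 probes and all members at E16 that were under detection.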
